A study of Mus musculus with 20 samples.

Results

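Collagen chain genes encode the polypeptides that wind around each other to form collagen, the main protein of the extracellular matrix. They were taken as every row of the count table whose symbol consists of Col, a collagen type number, the letter a and a chain number, which gave 44 of 24062 genes. RNA was measured by bulk sequencing in 20 mouse nerve tumor libraries on the C57BL/6J strain, with no drug given. The 12 neurofibroma libraries came from Nf1fl/fl; DhhCre mice, in which floxed Nf1 is lost where a Schwann cell lineage promoter drives Cre recombinase. The 4 paraspinal tumor libraries (sub-cluster 1 and sub-cluster 2, 2 libraries each) and the 4 GEM-PNST libraries came from Ink4a/Arf+/-; Nf1fl/fl; DhhCre mice, whose Ink4a/Arf locus, encoding cell cycle inhibitors, is disrupted in 1 copy in all cells. All groups therefore share the Nf1 and Cre alleles. GEM-PNST is the labels' name for the peripheral nerve sheath tumors of these genetically engineered mice, and the labels give no ages. The labels do not say whether libraries of a group came from separate animals, so p-values measure the spread between samples, which may be partly technical. Some sample codes share a stem: those of neurofibroma libraries 8 and 9, those of GEM-PNST library 2 and the first library of paraspinal subgroup 1, and, apart from the first digit, those of GEM-PNST libraries 1 and 4. The codes of the 2 libraries of paraspinal subgroup 2 differ by 1 letter. Whether such libraries share an animal is not given in the sources used here, and the tests treat all 20 as independent.

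Collagens fall into classes by the structure they build. Fibrillar collagens (types I, II, III, V, XI, XXIV and XXVII) form cable-like fibrils, network-forming type IV collagen is the scaffold of basement membranes, and type VI collagen forms beaded filaments near cells. FACITs, the fibril-associated collagens with interrupted helices, bind to fibril surfaces, multiplexins lie next to basement membranes, and types II, IX, X and XI are best known from cartilage. In peripheral nerve, Schwann cells and perineurial cells are wrapped in a type IV basement membrane, endoneurial fibroblasts lay down types I and III, and neurofibromas are known for a collagen-rich matrix. The 44 genes were sorted into 11 fibrillar, 6 basement membrane, 9 FACIT, 7 beaded filament and VWA-domain, 4 transmembrane, 3 short-chain network and 2 multiplexin genes, with Col7a1 and Col26a1 apart. A set of 7 cartilage chains (Col2a1, Col9a1, Col9a2, Col9a3, Col10a1, Col11a1 and Col11a2) runs across these classes.

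Neurofibroma libraries held 9900759 to 17594164 counts each, paraspinal libraries 18474071 to 24314222 and GEM-PNST libraries 16282605 to 22218382. Run numbers in the alignment file names place neurofibroma libraries 1 to 6 and 7 to 12 in separate runs and the other 8 libraries together in yet another. The names do not say what kind of run is meant. Against neurofibroma, the effects of run, Ink4a/Arf genotype and stage cannot be told apart. Several libraries stood apart within their groups. Neurofibroma library 11 had the most sensory neuron marker RNA of its group (2701 CPM, the count relative to the scaled library total, summed over 6 genes) and library 4 the least (9.45 CPM). GEM-PNST library 3 held 5280.3 CPM of salivary gland markers, against at most 6.67 CPM in any other library. Fibroblast markers summed to 1.08 CPM over 6 genes in GEM-PNST library 1 and to 958, 2166 and 1419 CPM in libraries 2 to 4. The sum of Schwann cell markers was 1385 to 4727 CPM in neurofibroma and 4562 to 8983 CPM in paraspinal libraries but 2.37, 3.35, 914 and 22.7 CPM in the 4 GEM-PNST ones. Over its whole length, which does not check the floxed part, the targeted gene Nf1 averaged 248 CPM in the 12 neurofibroma libraries (SD 19.8), 63.6 CPM in the 4 paraspinal ones (SD 29.3) and 26.3 CPM in the 4 GEM-PNST ones (SD 3.39).

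Several collagen genes are neighbors in the genome, and 3 pairs of type IV genes lie head to head, so that a shared stretch of DNA separates or joins their starts. On GRCm38, which shares its coordinates with the authors' mm10, Col4a1 (chromosome 8, 11198423 to 11312826, minus strand) and Col4a2 (11312805 to 11449287, plus strand) overlap by a few bases at their starts. Col4a4 (chromosome 1, 82448423 to 82586849, minus strand) and Col4a3 (82586921 to 82722059, plus strand) are 71 bases apart, and Col4a6 and Col4a5 on chromosome X are 1308 bases apart. The stretch between Col4a4 and Col4a3 is shown because both genes were low in GEM-PNST libraries. The 250 bases before the start are shown for Col3a1, a fibrillar chain of high level, for Col5a3, a fibrillar chain with another pattern, and for Col7a1, the member with the largest rise in GEM-PNST over neurofibroma libraries. None of the promoter stretches overlaps an exon of the GENCODE annotation. Sequences are from RefSeq (GRCm38.p6), 5′ to 3′ on the strand of the gene (that of Col4a4 for the shared stretch), and capitals mark the CCAAT box (letters CCAAT), the GC box (letters GGGCGG) and the TATA box (letters TATAAA) on either strand.
Col4a4 to Col4a3, chr1:82586850-82586920, minus strand: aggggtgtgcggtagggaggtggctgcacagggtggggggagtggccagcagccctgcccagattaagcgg
Col3a1, chr1:45311288-45311537, plus strand: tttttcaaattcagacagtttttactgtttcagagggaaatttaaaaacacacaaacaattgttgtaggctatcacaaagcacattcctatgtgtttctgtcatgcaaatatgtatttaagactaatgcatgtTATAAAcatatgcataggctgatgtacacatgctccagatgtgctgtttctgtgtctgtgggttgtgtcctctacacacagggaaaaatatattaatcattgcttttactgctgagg
Col5a3, chr9:20815068-20815317, minus strand: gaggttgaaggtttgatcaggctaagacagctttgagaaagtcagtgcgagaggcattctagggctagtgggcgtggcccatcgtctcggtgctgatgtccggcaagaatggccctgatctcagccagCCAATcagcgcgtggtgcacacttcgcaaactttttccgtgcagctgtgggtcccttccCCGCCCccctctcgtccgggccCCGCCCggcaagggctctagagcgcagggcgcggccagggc
Col7a1, chr9:108953336-108953585, plus strand: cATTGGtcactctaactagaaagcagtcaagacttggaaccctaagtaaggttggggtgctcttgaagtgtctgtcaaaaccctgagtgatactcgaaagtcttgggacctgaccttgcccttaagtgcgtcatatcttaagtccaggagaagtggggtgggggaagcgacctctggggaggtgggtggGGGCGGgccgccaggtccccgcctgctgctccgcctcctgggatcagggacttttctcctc
The Col3a1 stretch holds the TATA box 1 time and has a GC content of 35.2%, whereas those of Col5a3 (62.8% GC) and Col7a1 (56.4% GC) hold the GC box and the CCAAT box but no TATA box. The stretch between Col4a4 and Col4a3 (69.0% GC) holds none of the motifs. RefSeq windows of 250 bases were found for 35 of the 44 genes (38 windows). The CCAAT box was in 34.2% of these and in 33.9% of all 32841 windows, the TATA box in 13.2% and 12.4%, and the GC box in 57.9% and 32.7%.

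Collagen chains took up 0.0900% to 1.17% of all counts in neurofibroma libraries (median 0.445%) and 1.15% to 2.58% in paraspinal libraries. GEM-PNST libraries 1 to 4 ranged widely, with 0.145%, 0.769%, 3.24% and 1.11%. Levels of different genes were compared as CPM per kb of exon length. By that measure Col3a1 (76.6 CPM per kb), Col1a1 (66.2) and Col1a2 (64.6), the chains of the major fibrils, led in neurofibroma libraries, followed by Col8a1 (46.3), a short-chain network collagen, and Col15a1 (40.5), a multiplexin of nerve and vessel basement membranes. In paraspinal libraries Col1a1 (303.8), Col3a1 (228.9) and Col1a2 (200.8) led again, followed by Col6a1 (132.8) and Col16a1 (115.05), a FACIT. In GEM-PNST libraries the order was Col1a1 (313.0), Col3a1 (289.0), Col1a2 (236.6), Col6a1 (187.8) and Col4a1 (122.4), but these means rest on libraries far apart and their order is not a tested one.

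**Figure D1:**
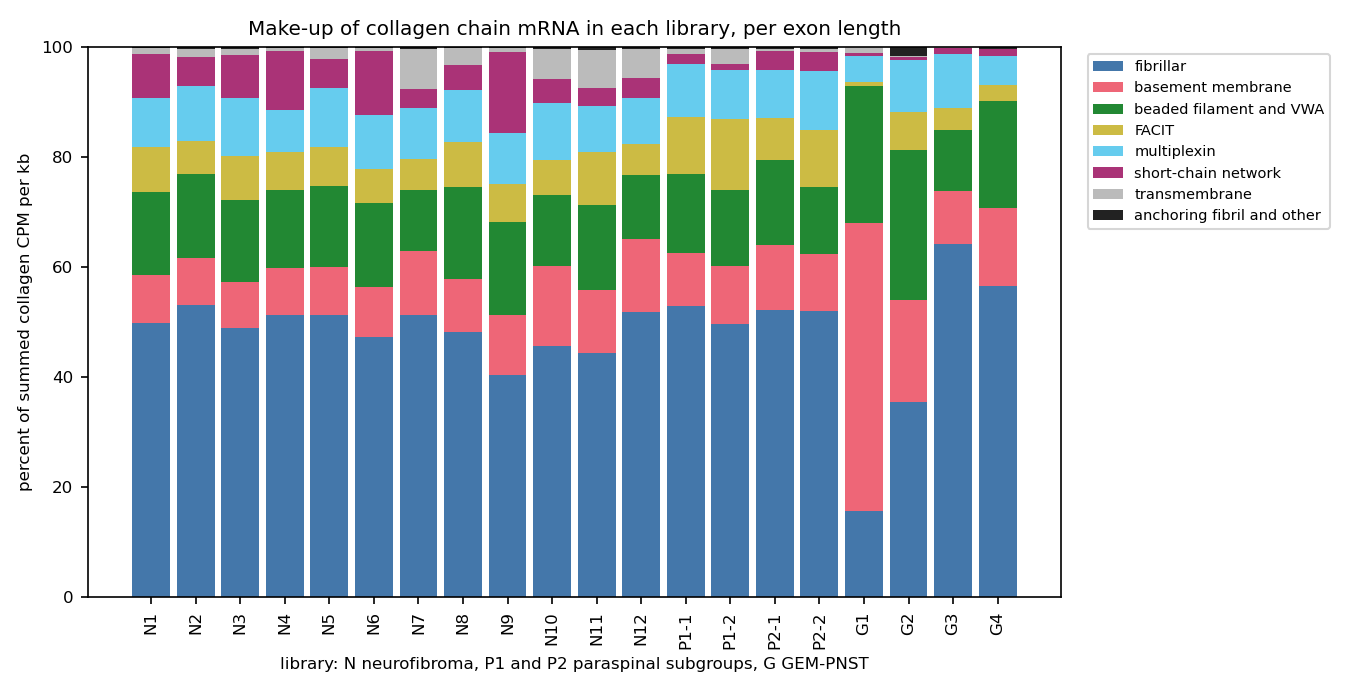
Share of each structural class in the summed collagen CPM per kb of exon length (percent, y axis) in each of the 20 libraries (x axis). Fibrillar chains take 40.2% to 53.0% in every neurofibroma and paraspinal library, and basement membrane chains take 52.5% in GEM-PNST library 1 (G1).

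The make-up of collagen RNA per length varied among the GEM-PNST libraries above all in its fibrillar and basement membrane shares. Fibrillar chains made up 40.2% to 53.0% in neurofibroma and 49.6% to 52.9% in paraspinal libraries, but 15.6%, 35.5%, 64.2% and 56.5% in GEM-PNST libraries 1 to 4. Basement membrane chains made up 8.28% to 14.6% in neurofibroma, 9.61% to 11.7% in paraspinal and 52.5%, 18.6%, 9.54% and 14.2% in GEM-PNST libraries. GEM-PNST library 1, the one with almost no fibroblast marker RNA, thus carried mainly type IV chains. Fibrillar chains were the largest class in every other library, with the highest share in GEM-PNST library 3.

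A total of 42 collagen genes passed the filter on low counts and were tested. Col9a1, a cartilage FACIT chain, and Col22a1, a FACIT of tissue junctions, had at most 0.683 and 1.66 CPM in any library and were not tested. Below, neurofibroma values are the lowest, median and highest of 12 libraries. Paraspinal values are in the order subgroup 1 libraries 1 and 2, then subgroup 2 libraries 1 and 2, and GEM-PNST values are in the order of libraries 1 to 4. Fold changes are on the log2 scale with standard errors (SE), and adjusted p-values come from edgeR's quasi-likelihood test with Benjamini-Hochberg adjustment over 16589 genes and a threshold of 0.05.

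More collagen chains rose than fell from neurofibroma to paraspinal libraries. Called higher were 8 of 11 fibrillar, 4 of 7 FACIT and 2 of 2 multiplexin genes, and 2 of 2 in the class of Col7a1 and Col26a1. In the remaining classes they were 2 of 6 basement membrane, 2 of 7 beaded filament and VWA-domain, 1 of 3 short-chain network and 1 of 4 transmembrane genes. Of the 42 tested, 22 rose and 4 fell, beside 30.3% of all genes called higher and 29.3% called lower (59.6% in all), and their median change was 1.17 against -0.02 over all genes. Every paraspinal library lay above every neurofibroma library in 15 members and below in 1, beside 18.4% and 18.1% of all genes (36.5% in all). In bulk tissue more RNA per cell and more cells of a collagen-making type cannot be told apart. Fibroblast markers summed to 4309, 2144, 4163 and 4216 CPM in paraspinal libraries, within the neurofibroma range of 857 to 7447 CPM, and Schwann cell markers to 4562 to 8983 CPM against 1385 to 4727 CPM. Macrophage markers (5 genes, none at 0 in all libraries of a group) summed to 537, 195, 855 and 779 CPM against 33.0 to 541 CPM, and the part of these cell types in the rise was not tested.

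**Figure D2:**
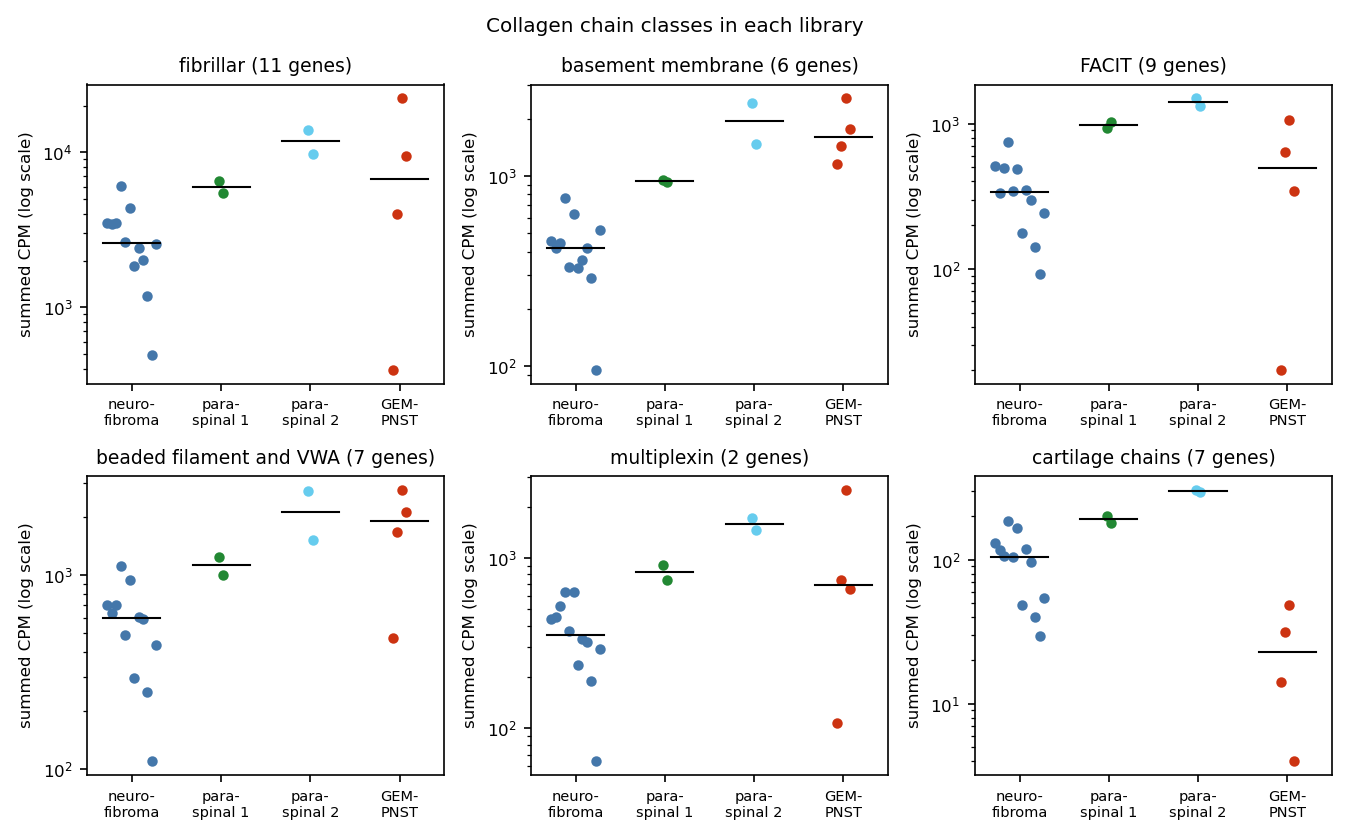
Summed CPM (log scale, y axis) of 6 sets of collagen chain genes in each library (points) by group (x axis), with the median of each group as a bar. Fibrillar chains sum to 5442 to 13882 CPM in the 4 paraspinal libraries and to 393 to 22354 CPM in the 4 GEM-PNST libraries, and cartilage chains are lower in every GEM-PNST than in every paraspinal library.

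Of the 11 fibrillar genes 8 rose and none fell in paraspinal libraries. Col1a1, the more abundant chain of type I collagen, had 55.2, 423 and 848 CPM in neurofibroma and 1473, 918, 3664 and 1920.3 CPM in paraspinal libraries, with no overlap. It rose by 2.20 (SE 0.45, adjusted p = 0.000405). Its partner Col1a2 had 158, 749 and 1575 CPM against 1653, 1339.7, 3939.6 and 3046 CPM, so that 1 paraspinal library lay within the neurofibroma range. Col1a2 rose by 1.64 (SE 0.39, adjusted p = 0.00177), and Col3a1, the type III chain, by 1.58 (SE 0.45, adjusted p = 0.00646).

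The type V chains, which set fibril diameter, did not move as 1 unit. Col5a3 had 33.5, 123 and 215 CPM in neurofibroma and 701, 813, 455 and 526 CPM in paraspinal libraries and rose by 2.31 (SE 0.31, adjusted p = 6.47e-06). It was higher in the subgroup 1 libraries, where Col1a1 was lower. Col5a1 rose by 1.13 (SE 0.46, adjusted p = 0.0425), and this call did not hold with RLE scaling (adjusted p = 0.0624). Col5a2 did not pass (1.27, SE 0.58, adjusted p = 0.0665). Col27a1, a fibrillar chain known from cartilage and developing tissue, rose by 1.42 (SE 0.41, adjusted p = 0.00647), while Col24a1 had 39.1, 117, 7.93 and 10.1 CPM in paraspinal libraries and was not called.

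Among basement membrane genes the paired Col4a1 and Col4a2, which together form the type IV trimer of most basement membranes, rose together. Col4a1 had 48.3, 196 and 360.1 CPM in neurofibroma and 531, 529, 1295 and 802 CPM in paraspinal libraries and rose by 1.96 (SE 0.33, adjusted p = 5.94e-05). Col4a2 had 37.9, 196 and 359 CPM against 394, 374, 1121 and 662 CPM and rose by 1.73 (SE 0.37, adjusted p = 0.000652). The groups did not overlap for either gene. The other pairs did not follow: Col4a3, a chain of kidney and other specialized basement membranes, fell by 2.01 (SE 0.56, adjusted p = 0.00535), and Col4a4, Col4a5 and Col4a6 were not called.

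Type VI collagen is built from 1 chain each of Col6a1, Col6a2 and, in most tissues, Col6a3. Col6a1 had 21.2, 113 and 233 CPM in neurofibroma and 368, 270.2, 1111 and 578 CPM in paraspinal libraries and rose by 2.32 (SE 0.40, adjusted p = 9.11e-05). Col6a2 rose by 2.01 (SE 0.39, adjusted p = 0.000304), with 18.7, 105 and 184 CPM against 282, 179.5, 752 and 357 CPM. Col6a3, with 23.9, 184 and 300.2 CPM against 307, 209.6, 459 and 339 CPM, did not pass (0.93, SE 0.40, adjusted p = 0.0565). Col6a6, an alternative to Col6a3 in the trimer, fell by 2.78 (SE 0.91, adjusted p = 0.0144) from a median of 0.687 CPM, a low level.

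The largest rise of any member was that of Col9a2, a chain of the cartilage FACIT type IX (chromosome 4, 121039385 to 121055322). It had 1.72, 4.04 and 5.85 CPM in neurofibroma and 66.7, 56.7, 71.3 and 88.4 CPM in paraspinal libraries, a gap of about an order of magnitude, and rose by 4.22 (SE 0.24, adjusted p = 3.41e-10). Its partner chain Col9a3 had 2.24, 5.09 and 6.49 CPM against 8.28, 15.2, 10.3 and 11.50 CPM and rose by 1.18 (SE 0.21, adjusted p = 0.000113). Col9a1, the remaining chain of the type IX trimer, stayed at or below 0.683 CPM in all libraries.

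Of the 6 tested cartilage chains, 4 rose and 1 fell. Col2a1, the main fibrillar chain of cartilage, had 4.04, 18.3 and 41.8 CPM in neurofibroma and 49.99, 53.4, 114 and 109 CPM in paraspinal libraries and rose by 2.00 (SE 0.44, adjusted p = 0.000868). Col11a2, which copolymerizes with it, had 0.366, 1.04 and 2.63 CPM against 14.1, 14.4, 7.06 and 8.47 CPM and rose by 3.19 (SE 0.35, adjusted p = 5.71e-07). Col10a1, the collagen of hypertrophic cartilage, fell instead, from 2.93, 5.96 and 8.53 CPM to 0.166, 0.266, 0.487 and 0.183 CPM (by 4.37, SE 0.40, adjusted p = 9.7e-08). Of the 8 chondrocyte markers some were at or near 0 and others were not. Acan, the cartilage proteoglycan, had at most 0.812 CPM, Matn1 at most 0.203 CPM and Matn3 at most 0.248 CPM in any of the 20 libraries, while the whole list, which includes Sox9, Hapln1 and Lect1, summed to 33.1 to 57.2 CPM in neurofibroma and 41.6 to 60.1 CPM in paraspinal libraries.

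Among the other classes, Col16a1, a FACIT, had 13.3, 94.9 and 153 CPM in neurofibroma and 604, 669, 944 and 889.9 CPM in paraspinal libraries and rose by 3.17 (SE 0.47, adjusted p = 1.65e-05). Col18a1, the basement membrane multiplexin that gives rise to endostatin, rose by 2.45 (SE 0.44, adjusted p = 0.000121), with 451, 363, 1006 and 682 CPM in paraspinal libraries against at most 244 CPM in neurofibroma. Col8a2, a short-chain network chain, rose by 2.78 (SE 0.30, adjusted p = 5.4e-07) and was highest in subgroup 1 (24.9 and 31.9 CPM). Col13a1, a transmembrane collagen of cell junctions, rose by 3.38 (SE 0.59, adjusted p = 9.49e-05) from at most 0.410 CPM to 1.37, 0.975, 2.87 and 1.21 CPM. Col25a1, another transmembrane collagen, known from neurons, fell by 1.19 (SE 0.39, adjusted p = 0.0152).

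Of the 26 calls, 9 held in every alternative tried: Col9a2, Col10a1, Col11a2, Col13a1, Col16a1, Col18a1, Col4a1, Col5a3 and Col8a2. A fit with replicate numbers as a block lost 17 of the 26 by itself. It sets only neurofibroma libraries 1 and 2 against the paraspinal ones. Col1a1, Col6a1, Col6a2, Col7a1 and Col26a1 lost their calls in that fit alone. Without paraspinal subgroup 2 library 1, Col3a1, Col5a1, Col14a1 and Col25a1 lost their calls, and subgroup 1 alone against neurofibroma kept 16 of the 26. Set against neurofibroma libraries 1 to 6 or 7 to 12 alone, the paraspinal libraries kept 21 and 25 of the 26 calls.

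**Figure D3:**
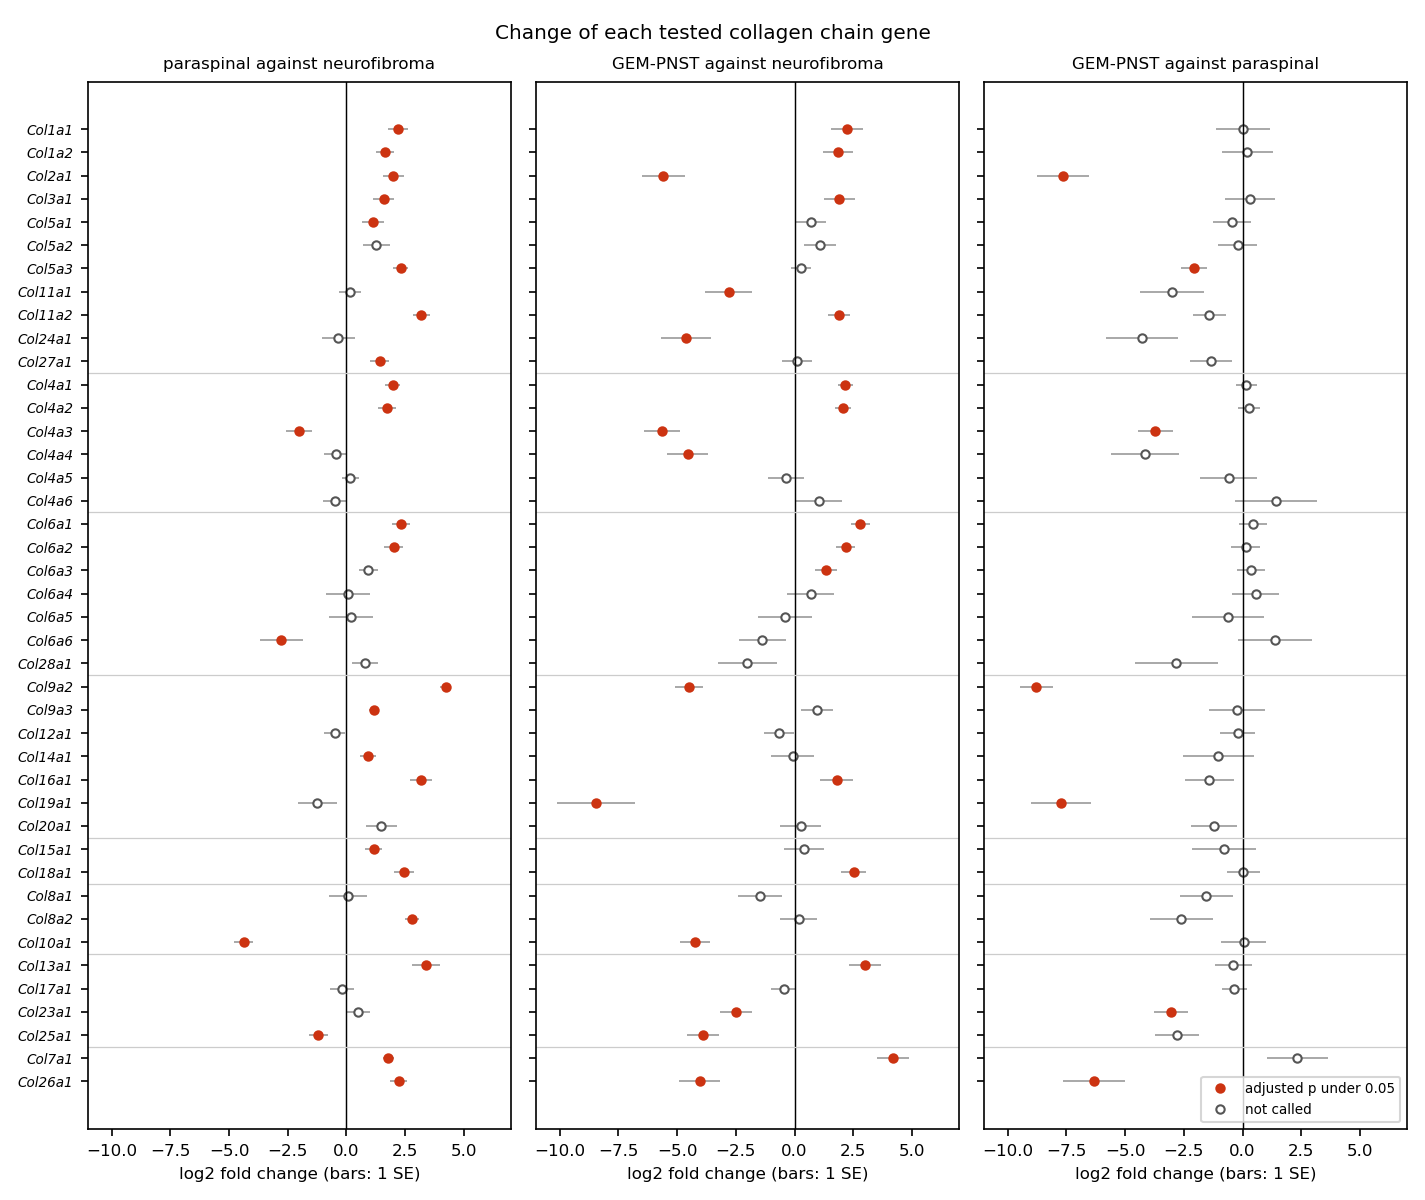
Log2 fold change (x axis) with 1 SE of each of the 42 tested collagen chain genes (y axis, by class) in 3 comparisons, with filled points for adjusted p under 0.05. The calls between GEM-PNST and paraspinal libraries are all lower, led by Col9a2 at -8.78.

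Between GEM-PNST and paraspinal libraries, which have the same genotype and run, no member rose and 7 fell, beside 2.77% of all genes called higher and 8.13% called lower (10.9% in all). The members' median change was -0.60 against 0 over all genes. Every GEM-PNST library lay below every paraspinal library in 14 members and above in none, beside 16.4% and 11.2% of all genes (27.6% in all). Those that fell were the cartilage chains Col9a2 and Col2a1, the type IV chain Col4a3, the type V chain Col5a3, and Col19a1, Col23a1 and Col26a1.

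Col9a2 dropped to 0, 0.325, 0.149 and 0.162 CPM in GEM-PNST libraries, from at least 56.7 CPM in paraspinal ones (fell by 8.78, SE 0.71, adjusted p = 0.000993). Col2a1 dropped to 0.0678, 0.271, 1.24 and 0 CPM (fell by 7.64, SE 1.11, adjusted p = 0.00671). Col26a1, a little-studied collagen first described in gonads, dropped from 24.3, 18.5, 68.6 and 57.5 CPM to 0, 0.487, 1.59 and 0 CPM (fell by 6.32, SE 1.32, adjusted p = 0.0243). Col19a1, a FACIT found in muscle and neurons, had 0 counts in all 4 GEM-PNST libraries and 118 counts over the paraspinal ones, which puts it at least 27.3-fold lower when 3 counts over the group are taken as the floor (adjusted p = 0.0243). Floors cover counting error only.

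Col4a3 fell further, from 2.23, 2.17, 0.779 and 1.46 CPM to 0.0678, 0.162, 0.0498 and 0.243 CPM (by 3.71, SE 0.76, adjusted p = 0.0227). Its head-to-head partner Col4a4, with 10.5, 8.73, 1.12 and 2.37 CPM against 0, 0, 0.945 and 0.324 CPM, had no overlap but did not pass (adjusted p = 0.092). Col23a1, a transmembrane collagen, fell by 3.05 (SE 0.74, adjusted p = 0.0376), from 81.2, 188, 50.4 and 58.0 CPM to 19.2, 2.54, 20 and 6.31 CPM. Col5a3 fell by 2.08 (SE 0.55, adjusted p = 0.0472) to 115, 51.2, 298 and 147 CPM, a call lost when any library other than GEM-PNST library 3 was left out (adjusted p from 0.0552 to 0.13).

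The abundant fibril chains ranged widely within GEM-PNST. Col1a1 had 72.0, 422, 6205 and 1519 CPM and Col1a2 52.8, 1720.2, 7485 and 2503 CPM in GEM-PNST libraries, and their fitted changes against paraspinal libraries were 0.02 (SE 1.13) and 0.21 (SE 1.08). Col3a1 had 68.3, 1006, 6160.0 and 4113 CPM (0.31, SE 1.08). Such standard errors leave room for changes of several fold in either direction. The major type IV chains had a narrower range: Col4a1 had 626, 672, 1348 and 1008 CPM and Col4a2 530.2, 739, 1219 and 744 CPM.

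Schwann cell markers summed to at most 914 CPM in GEM-PNST libraries, below every paraspinal library, and their part in these falls was not tested. Only Col9a2 and Col2a1 were left of the 7 calls without paraspinal subgroup 1 library 1, subgroup 1 library 2 or subgroup 2 library 2. Leaving out GEM-PNST libraries 1 and 3 kept 6 of the 7 calls and added others, of which 1 was higher. Of the 7, only Col9a2 was called in every alternative tried, and Col2a1 in all but subgroup 2 alone (adjusted p = 0.0784).

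Against the neurofibroma libraries, which serve as control here as above, 13 members were higher and 11 lower in GEM-PNST, beside 35% of all genes called higher and 38.2% called lower (73.2% in all). The members' median change was 0.23 against -0.14 over all genes. Only Col4a1 and Col4a2 lay above every neurofibroma library in all GEM-PNST libraries and 9 members lay below, beside 21.3% and 25.2% of all genes (46.5% in all). Col4a1 was higher by 2.16 (SE 0.32, adjusted p = 1.26e-05) and Col4a2 by 2.06 (SE 0.35, adjusted p = 5.48e-05). Macrophage markers summed to 1319, 741, 1790.3 and 2620.4 CPM in the GEM-PNST libraries, above every neurofibroma library, and their part in the higher chains was not tested. Both type IV chains were high even in library 1, which had the lowest fibrillar sum of all 20 libraries (393 CPM).

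Col7a1, the anchoring fibril collagen of epithelial basement membranes (chromosome 9, 108953586 to 108984875), had the largest rise. It had 2.26, 3.49 and 5.53 CPM in neurofibroma and 0.678, 196, 5.17 and 63.4 CPM in GEM-PNST libraries (4.18, SE 0.68, adjusted p = 3.43e-05). Only libraries 2 and 4 exceeded the neurofibroma range, so the groups overlapped. Epidermis markers summed to 1.70, 6.17, 14.8 and 4.94 CPM in the same libraries and were highest in library 3. Library 2 also had the highest Col4a6 of the series (18.3 CPM, against at most 6.17 CPM elsewhere) and 195 CPM of Dmp1, a bone matrix gene. The 5 osteoblast markers, Dmp1 included, summed to 196 CPM there, so the rest of that list was near 0. Of its 3 tested genes 1 was called higher and 2 lower in GEM-PNST than in neurofibroma libraries, and Ibsp had no counts in GEM-PNST.

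Col6a1 had 229, 1033, 1029 and 998 CPM in GEM-PNST libraries and was higher by 2.81 (SE 0.41, adjusted p = 1.14e-05). Col6a2 was higher by 2.18 (SE 0.41, adjusted p = 0.000146), Col6a3 by 1.33 (SE 0.48, adjusted p = 0.0186), Col18a1 by 2.51 (SE 0.52, adjusted p = 0.000394) and Col13a1 by 3.01 (SE 0.69, adjusted p = 0.000857). The fibril chains Col1a1 (2.24, SE 0.68, adjusted p = 0.0072), Col3a1 (1.90, SE 0.66, adjusted p = 0.0161) and Col1a2 (1.86, SE 0.64, adjusted p = 0.0145) depended on single libraries. Without GEM-PNST library 3, the library with salivary gland markers, Col1a1, Col1a2, Col3a1, Col6a3 and Col16a1 lost their calls, and 19 of the 24 calls held. In that fit 8 members were higher and 16 lower, and the share of all genes called in it is not given. Col3a1 and Col6a3 also lost theirs without library 4, and Col16a1 without library 2. Set against neurofibroma libraries 1 to 6 or 7 to 12 alone, the GEM-PNST libraries kept 19 and 22 of the 24 calls.

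The members that were lower included 4 of the 6 tested cartilage chains. Col2a1 was lower by a log2 change of -5.58 (SE 0.93, adjusted p = 4.74e-05), Col9a2 by -4.49 (SE 0.60, adjusted p = 4.27e-06) and Col10a1 by -4.22 (SE 0.64, adjusted p = 1.82e-05), each with no overlap. Col11a1, the partner of Col11a2, had 17.8, 66.2 and 129.8 CPM in neurofibroma and 0, 26.9, 9.60 and 0.567 CPM in GEM-PNST libraries (-2.80, SE 1.008, adjusted p = 0.0195). Col11a2 itself was higher (1.89, SE 0.49, adjusted p = 0.00225), with 12.1 CPM in library 1 and 1.44 to 2.76 CPM in the others, a call lost without library 1. Chondrocyte markers summed to 1.42, 34.8, 13.4 and 42.7 CPM in the GEM-PNST libraries, and their part in these differences was not tested.

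The rarer type IV chains were lower as well, Col4a3 by -5.65 (SE 0.76, adjusted p = 4.81e-06) and Col4a4 by -4.545 (SE 0.87, adjusted p = 0.000193). Col4a4 had 1.98, 7.20 and 12.7 CPM in neurofibroma and no counts in GEM-PNST libraries 1 and 2. Col24a1, a minor fibrillar chain, was lower by -4.61 (SE 1.06, adjusted p = 0.000912), Col25a1 by -3.89 (SE 0.69, adjusted p = 9.07e-05), Col26a1 by -4.04 (SE 0.86, adjusted p = 0.000501) and Col23a1 by -2.49 (SE 0.67, adjusted p = 0.00318). Col19a1 had 453 counts over the 12 neurofibroma libraries and 0 in GEM-PNST, which puts it at least 61.2-fold lower by the same floor (adjusted p = 0.000395). Of the 24 calls, 12 held in every alternative tried, among them Col4a1, Col4a2, Col4a3, Col4a4, Col6a1, Col6a2, Col2a1 and Col9a2. The fit with replicate numbers as a block, which leaves most neurofibroma libraries out of the comparison, lost 10 of the 24 by itself. Col7a1, Col13a1 and Col18a1 lost their calls in that fit alone.

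**Figure D4:**
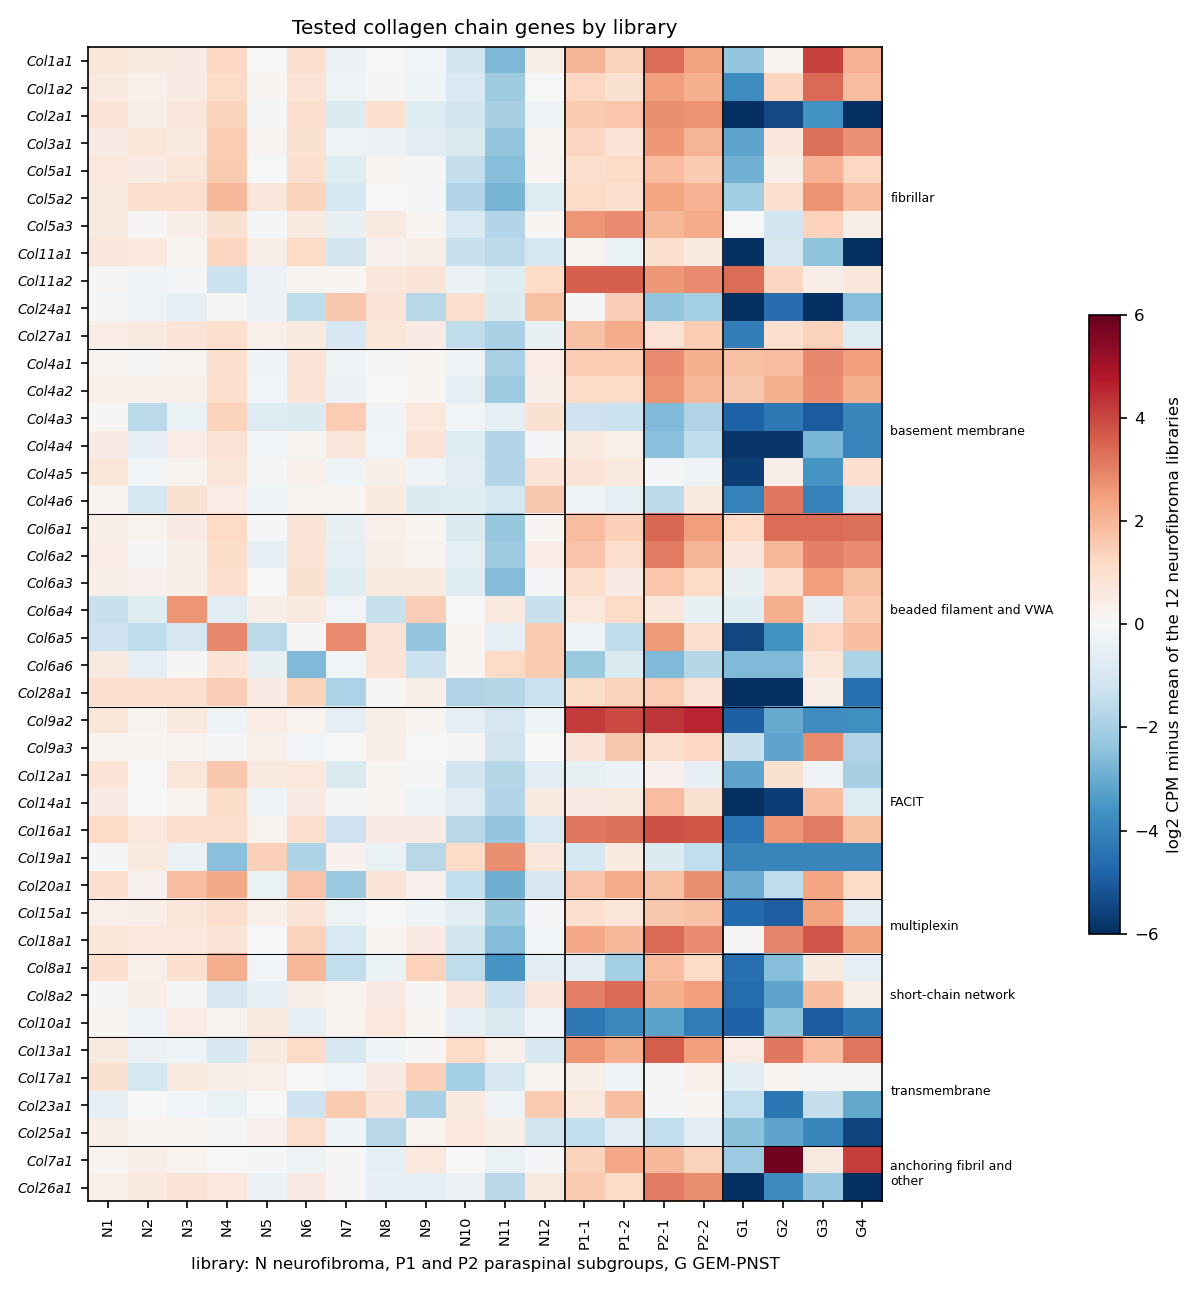
Log2 CPM (prior count of 2) of the 42 tested collagen chain genes (y axis, by class) in each library (x axis), minus the mean of the 12 neurofibroma libraries, with colors limited to 6 in either direction. Neurofibroma library N11 is the lowest of its group in 28 genes, and GEM-PNST library G1 is below the neurofibroma mean in most genes, with Col4a1, Col4a2 and Col11a2 among those above it.

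No member was called between paraspinal subgroups 2 and 1 by edgeR, as for all genes (0%), and none had an unadjusted p under 0.05. DESeq2 called 0 and limma-voom 10 members (6 higher and 4 lower in subgroup 2). The share of all genes that limma-voom called is not given beside this, so the 10 are not read as particular to collagen chains. Both subgroup 2 libraries lay above both subgroup 1 libraries in 20 members and below in 9, beside 34.6% and 34.9% of all genes (69.6% in all). Fibrillar chains summed to 13882 and 9793 CPM in subgroup 2 and 6536 and 5442 CPM in subgroup 1. Among the members without overlap, Col8a1 had 806 and 509.9 CPM in subgroup 2 against 142 and 54.1 CPM, whereas Col24a1 had 7.93 and 10.1 CPM against 39.1 and 117 CPM and Col4a4 1.12 and 2.37 CPM against 10.5 and 8.73 CPM. The labels call the subgroups sub-clusters, so they may have been drawn from these values.

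Collagen levels varied widely among the neurofibroma libraries. Over the 39 tested members with counts in all 12, the highest library was a median of 9.86 times the lowest, against 2.64 times among the 4 paraspinal libraries (41 members) and 23.4 times among the 4 GEM-PNST libraries (30 members). Library 4 was the highest neurofibroma library in 22 of 42 members and library 11 the lowest in 28. Fibrillar chains summed to 6033 CPM in library 4 and 488 CPM in library 11, with a median of 2587 CPM. Sensory neuron markers were lowest in library 4 (9.45 CPM) and highest in library 11 (2701 CPM), which also had the lowest fibroblast marker sum (857 CPM), and the part of either cell type was not tested. Col5a2, Col15a1, Col1a2 and Col28a1, or 4 of 42, were higher in all of libraries 1 to 6 than in all of 7 to 12, the other run, and 0 were lower, beside 0.663% and 0.319% of all genes (0.983% in all). Among GEM-PNST libraries, library 1 was the lowest in 28 of 42 members and had 0 counts in 12 of 44, and library 3 was the highest in 25.

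**Figure D5:**
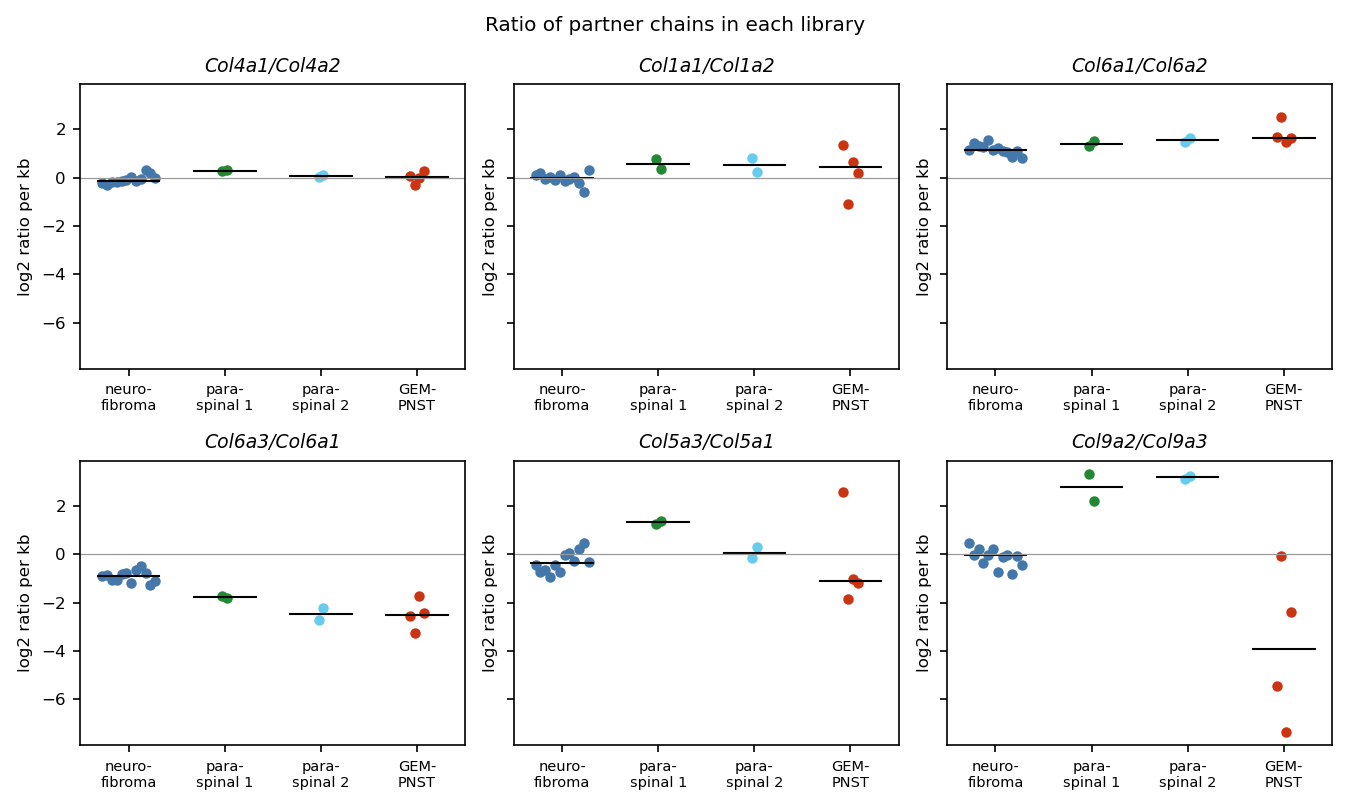
Log2 ratio of counts per kb (y axis) of 6 pairs of collagen chains that can share a trimer, with 0.5 added to each count. Points are libraries by group (x axis), and bars are group medians. Col4a1/Col4a2 stays between -0.31 and 0.33 in all 20 libraries, and Col9a2/Col9a3 is at least 2.21 in the paraspinal libraries and at most -0.07 in the GEM-PNST libraries.

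Chains that share a trimer need not be transcribed in proportion, so their ratios per length were compared in each library. To each count 0.5 was added before the ratio was taken. Col4a1 and Col4a2 kept a log2 ratio between -0.31 and 0.33 in all 20 libraries while their levels spanned 37.9 to 1348 CPM. For Col1a1 to Col1a2 the GEM-PNST range of -1.11 to 1.37 enclosed those of neurofibroma (-0.59 to 0.33) and paraspinal libraries (0.26 to 0.82). Col6a3 was low relative to Col6a1 in both later stages, with log2 ratios of -2.72 to -1.71 in paraspinal libraries and of -3.26 to -1.73 in GEM-PNST, neither of which overlapped the neurofibroma range of -1.27 to -0.48. Col6a1 to Col6a2 ran from 0.80 to 1.57 in neurofibroma and was 1.67, 2.52, 1.48 and 1.65 in GEM-PNST libraries.

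The ratio of Col9a2 to Col9a3 set the paraspinal libraries apart from both other groups, which overlapped each other. It ran from -0.82 to 0.48 in neurofibroma and from 2.21 to 3.32 in paraspinal libraries. In GEM-PNST libraries it was -5.47, -0.07, -7.36 and -2.41, on Col9a2 counts of 0, 6, 3 and 2. The ratio in library 1 is thus set by the added 0.5, and the others rest on few Col9a2 reads. GEM-PNST library 3 kept 35.6 CPM of Col9a3 beside 0.149 CPM of Col9a2. In Col9a3, 6.07% of the exon bases are shared with Tcfl5 on the opposite strand, and no source used here says whether reads were assigned by strand. Col5a3 to Col5a1 was 1.27 and 1.38 in subgroup 1, -0.17 and 0.305 in subgroup 2 and -0.96 to 0.48 in neurofibroma libraries, and it was 2.59, -1.87, -1.03 and -1.19 in GEM-PNST libraries.

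Genes that act on collagen were counted from lists of modifying enzymes, chaperones, proteases, crosslinking enzymes, binding proteins and receptors. Their counts stand beside 30.3% of all genes called higher and 29.3% called lower in paraspinal, and 35% and 38.2% in GEM-PNST libraries. The receptors lay near those shares, and the small lists leave wide room around theirs. Against the shared neurofibroma libraries, of 15 enzymes of prolyl and lysyl modification 10 rose and 1 fell in paraspinal libraries, and 10 rose and 3 fell in GEM-PNST, with median changes of 1.10 and 1.56 (all genes -0.02 and -0.14). Ppib, a prolyl isomerase of the collagen-folding complex, had 12.9, 16.6 and 24.8 CPM in neurofibroma, 179, 157, 619 and 446 CPM in paraspinal and 725, 1136, 588 and 545 CPM in GEM-PNST libraries. It rose by 4.32 (SE 0.26, adjusted p = 8.77e-10) and 5.39 (SE 0.20, adjusted p = 5e-12). Run, Ink4a/Arf genotype and stage cannot be told apart in either comparison. In paraspinal libraries Plod3, a lysyl hydroxylase, rose by 2.51 and Leprel4 and Leprel2, relatives of the prolyl hydroxylase complex, by 2.32 and 1.86. In GEM-PNST libraries Leprel4 rose by 3.14, while Leprel1, a prolyl hydroxylase of basement membrane collagen, was at -3.32 and Colgalt2, a collagen galactosyltransferase, at -3.47.

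Of 11 tested folding and export genes, 4 rose and 2 fell in paraspinal and 5 rose and 3 fell in GEM-PNST libraries, with medians of 0.47 and 0.44. Serpinh1, the collagen chaperone HSP47, had 18.0, 126 and 261 CPM in neurofibroma, 386, 327, 1665 and 1315 CPM in paraspinal and 86.6, 773, 1329.9 and 1275 CPM in GEM-PNST libraries. It rose by 2.84 (SE 0.46, adjusted p = 4.82e-05) and 2.73 (SE 0.51, adjusted p = 0.00016), and GEM-PNST library 1 was again the lowest of its group. Fkbp10 rose by 2.64 and 3.42 and Kdelr3 by 2.04 and 2.38, while Creb3l2, a transcription factor of secretory genes, changed by -1.92 and -2.79. Of 8 propeptide cleavage genes 3 rose and 1 fell in paraspinal and 3 rose and 2 fell in GEM-PNST libraries (medians 0.71 and -0.57). Bmp1, the procollagen C-proteinase, rose by 2.05 and 2.42 and its enhancer Pcolce by 1.92 and 2.00, while the related Tll1 changed by -2.06 and -3.52 and Pcolce2 by -2.94 in GEM-PNST.

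Of 6 crosslinking genes 3 rose in paraspinal and 2 in GEM-PNST libraries, and none fell (medians 0.74 and 1.03). Without paraspinal subgroup 2 library 1, Loxl3 and Tgm2 lost their calls in paraspinal libraries, which left 1 of the 3, and Tgm2 lost its call without subgroup 2 library 2 as well. Loxl1, a lysyl oxidase relative, had 1.72, 9.18 and 18.0 CPM in neurofibroma, 34.7, 11.7, 148 and 91.7 CPM in paraspinal and 23.3, 1058, 507 and 670.1 CPM in GEM-PNST libraries. It rose by 3.01 (SE 0.53, adjusted p = 0.000101) and 5.97 (SE 0.62, adjusted p = 2.44e-07), and every GEM-PNST library lay above the neurofibroma range. Of 15 tested fibril-binding genes 2 rose and 2 fell in paraspinal and 3 rose and 5 fell in GEM-PNST libraries (medians 0.40 and 0.24), where Ogn (-3.63), Tnxb (-3.01), Dcn (-2.86) and Prelp (-2.67), small proteoglycans and a tenascin of connective tissue, were lower. In paraspinal libraries the rises of Fbln1 and Fbln2 and the fall of Ogn were not called without subgroup 2 library 1, and Ogn also lost its call without subgroup 1 library 1. Dcn is also in the fibroblast marker list, of whose 6 genes 2 were called higher and 1 lower in GEM-PNST (median change 1.53). The sum of that list, Dcn included, was at most 2166 CPM in GEM-PNST libraries against a median of 4098 CPM in neurofibroma. Prelp lost its call without GEM-PNST library 1 or 4.

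Of 11 receptors 3 rose and 3 fell in paraspinal and 4 rose and 5 fell in GEM-PNST libraries (medians -0.41 and -0.21). Ddr1, a collagen receptor kinase, rose by 2.10 (SE 0.17, adjusted p = 1.49e-08) in paraspinal libraries. Itga2, the alpha subunit of a collagen-binding integrin, had 8.38, 49.7 and 88.6 CPM in neurofibroma, 19.4, 23.1, 1.85 and 2.52 CPM in paraspinal and 0, 1.08, 1.29 and 1.78 CPM in GEM-PNST libraries (-1.87, SE 0.71, adjusted p = 0.0304, and -5.37, SE 0.88, adjusted p = 3.77e-05). The first of these calls was lost without either subgroup 2 library. Gpr126 and Gpr56, adhesion receptors that bind collagen, were at -3.08 and -2.19 in GEM-PNST. Of 5 basement membrane partners 2 rose in paraspinal libraries, and 1 rose and 1 fell in GEM-PNST (medians 0.73 and -0.44). Pxdn, which crosslinks type IV collagen, rose by 1.10 and 2.04, Agrn by 1.03 in paraspinal libraries, and Nid1 was at -1.24 in GEM-PNST, a call lost without GEM-PNST library 1 or 2.

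Of 8 tested cartilage matrix genes and regulators, 1 rose and 3 fell in paraspinal and 5 fell in GEM-PNST libraries (medians -0.13 and -1.97). Matn4, a matrilin, rose by 3.41 (SE 0.31, adjusted p = 7.25e-08) in paraspinal libraries, while Hapln1 (-1.95), Sox6 (-1.15) and Sox5 (-1.04) fell, and Hapln1 (-5.28), Sox6 (-3.75) and Sox5 (-2.02) were also lower in GEM-PNST. Without paraspinal subgroup 2 library 1 the falls of Hapln1 and Sox5 in paraspinal libraries lost their calls, and that of Hapln1 also without subgroup 2 library 2 or subgroup 1 library 1. Lect1, a cartilage protein also called chondromodulin, had 13.6, 38.8, 10.95 and 20.2 CPM in paraspinal libraries, whereas GEM-PNST library 3 had 0.299 CPM and the others 0 CPM. It was the sole gene of the 8 lists called between these stages (-7.91, SE 1.25, adjusted p = 0.00903), apart from the collagen chains themselves.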

How the data were processed

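The deposited values are raw counts of reads by gene. The submitters' processing notes name the build mm10 and the tools TopHat, HISAT2 and featureCounts, without versions or roles. Per the labels, Nextera XT libraries were made from RNeasy-extracted RNA. Annotation and strand setting are not given in the sources used here. Files were matched to samples through the deposited table of sample and alignment names.

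Counts were scaled with TMM factors to CPM over all 20 libraries. Genes passing edgeR's expression filter (16589 of 24062; 42 of 44 collagen chains) were tested with edgeR 4.0.16 (R 4.3.3) by quasi-likelihood F tests, using only the libraries of the stages compared, with GEM-PNST libraries added to share their spread in the subgroup comparison. The SE is the change divided by the root of F. Lengths are merged exons of GENCODE M21. Among 190 pairs of libraries none agreed within sampling noise (chi-square over its degrees of freedom at least 22.6). Alternatives were RLE factors, other filters, DESeq2 1.42.0, limma-voom (limma 3.58.1), all libraries in 1 fit, a replicate block and parts of the libraries. Fits without GEM-PNST libraries 1 and 3 were chosen after seeing the data. The members, classes and lists were chosen with earlier results of these data known. Every member could be named, with full values for the 2 most abundant per length of a class, up to 8 each way with the largest change per comparison, and their partner chains, and up to 4 genes per list. A selection of these is printed. The tests were tried on simulated data.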

Additional observations from a re-analysis of the deposited data

Results flagged for a closer look

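In each group of 4, the highest and lowest library were compared with the others, for every tested collagen chain. Of 84 group checks, 2 found a library far from the rest, and chance flags about 1 in 20 groups. Col12a1, a FACIT of tendon and nerve sheath, had 141 CPM in paraspinal subgroup 2 library 1 and 85.8 to 91.7 CPM in the other paraspinal libraries. Col6a1 had 229 CPM in GEM-PNST library 1 and 998 to 1033 CPM in the other GEM-PNST libraries.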

How the results depend on the processing

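No alternative reversed the direction of a called collagen chain. Counts of members under alternatives, here, above and below, are given without the share of all genes called in the same fit. A change in such a count is therefore not read as particular to collagen chains. Of the members called, 1 of 7 (GEM-PNST against paraspinal), 9 of 26 (paraspinal against neurofibroma) and 12 of 24 (GEM-PNST against neurofibroma) kept the call in every alternative tried. The replicate block described below lost 4, 17 and 10 of these calls by itself. Between GEM-PNST and paraspinal libraries the count of 7 became 11 with limma-voom and 13, 1 of them higher, with a fit of all 20 libraries together. It was 3 with paraspinal subgroup 1 alone and 1 with subgroup 2 alone, and it ran from 2 to 10 when 1 library was left out. Between paraspinal and neurofibroma libraries the count of 26 became 16 with subgroup 1 alone and ran from 22 to 27 with 1 library left out. Between GEM-PNST and neurofibroma libraries it ran from 22 to 25 around 24. Between the subgroups it was 10 with limma-voom and 0 when 1 library was left out. Where 1 library of an arm is left it is assumed to vary like the others.

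The replicate numbers of the titles were also fitted as a block. Residuals of same-numbered libraries had correlations from -0.26 to 0.17 (6 of 14 over 0.1). The residuals of the 2 libraries of a paraspinal subgroup mirror each other. These values therefore cannot tell whether same-numbered libraries share more than a number. In the block fit a number found in only 1 of the groups compared adds nothing to the comparison. Of the neurofibroma libraries this leaves 1 and 2 against paraspinal and 1 to 4 against GEM-PNST libraries. Between GEM-PNST and paraspinal it leaves GEM-PNST libraries 1 and 2. Its counts thus rest on fewer libraries and do not isolate an effect of shared numbers. With the replicate block 9 members were called between paraspinal and neurofibroma, 14 between GEM-PNST and neurofibroma, 8 (3 of them among the 7) between GEM-PNST and paraspinal, and 0 between the subgroups. Depth limits members near 0 most. GEM-PNST libraries 1 to 4 had 12, 4, 2 and 5 of 44 members at 0 counts. Their total counts were 22218382, 20918232, 19597344 and 16282605, and the part of depth in these zeros was not tested.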
